A study of Homo sapiens with 6 samples.

Results

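EGR1, the other early growth response (EGR) factors, their NAB corepressors, the serum response factor SRF and its ELK partners were examined in K562 cells, an established line grown from a chronic myelogenous leukaemia. The 10 genes were EGR1, EGR2, EGR3, EGR4, NAB1, NAB2, SRF, ELK1, ELK3 and ELK4. The gene group was selected on the difference between CA and DMSO arrays that EGR1 and SRF had shown on these same 6 arrays, and it was filled up with family members and binding partners. All differences between CA and DMSO below are therefore a description of these arrays, and nothing is supported by them. Of 54613 probe sets other than controls, 27 carried 1 of these symbols and no other, and they represent 9 of the 10 genes. EGR2 has no such probe set and was not analysed here.

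Cells were exposed for 3 h to 25 nM CA, given in the title of the series as cortistatin A, or to the vehicle DMSO, with 3 wells and 3 arrays for each. Cortistatin A is known as an inhibitor of CDK8 and CDK19, the kinases that associate with the Mediator complex. Total RNA, 100 ng per sample, was the input for Affymetrix U133 Plus 2.0 arrays, which hold several probe sets for many genes. Nothing in the labels says that the wells came from separate cultures, so the errors below measure the spread between these 6 wells, which may be technical.

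EGR factors are zinc finger proteins that bind GC-rich DNA, and EGR1 is an immediate early gene, transcribed within minutes of growth factor signalling without new protein synthesis. SRF binds DNA elements called CArG boxes in the promoters of such genes. ELK1, ELK3 and ELK4 are ternary complex factors of the ETS family, which sit beside SRF and are phosphorylated by the kinase ERK. Phosphorylated ELK1 is known to contact Mediator through the subunit MED23. NAB1 and NAB2 bind an inhibitory domain of EGR1 and restrain its activity, and NAB2 is itself induced by EGR factors. In K562 cells the fusion kinase BCR-ABL1 keeps the RAS and ERK pathway active.

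The promoters of EGR1, SRF and NAB2 are shown because they hold the motifs these factors read, and because the 2 groups of arrays were apart for EGR1, for SRF and for 1 probe set of NAB2. Each run gives the 250 bases before the transcription start, 5′ to 3′ on the strand of the gene, from RefSeq on GRCh38.p14. The regions are chr5:138465229-138465478 on the plus strand for EGR1, chr6:43171019-43171268 on the plus strand for SRF and chr12:57088864-57089113 on the plus strand for NAB2. Capitals mark matches to the CArG box or to the EGR site GCGNGGGCG.
EGR1: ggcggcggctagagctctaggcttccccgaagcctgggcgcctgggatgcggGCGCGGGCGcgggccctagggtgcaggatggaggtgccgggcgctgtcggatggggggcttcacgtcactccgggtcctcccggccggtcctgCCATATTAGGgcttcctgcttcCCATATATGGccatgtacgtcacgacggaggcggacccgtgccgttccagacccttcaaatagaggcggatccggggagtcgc
SRF: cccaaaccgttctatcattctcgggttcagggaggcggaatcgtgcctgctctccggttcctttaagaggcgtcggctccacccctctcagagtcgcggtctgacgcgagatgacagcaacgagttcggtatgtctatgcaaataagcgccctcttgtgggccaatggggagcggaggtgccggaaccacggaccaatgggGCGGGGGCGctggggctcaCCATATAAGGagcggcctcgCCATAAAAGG
NAB2: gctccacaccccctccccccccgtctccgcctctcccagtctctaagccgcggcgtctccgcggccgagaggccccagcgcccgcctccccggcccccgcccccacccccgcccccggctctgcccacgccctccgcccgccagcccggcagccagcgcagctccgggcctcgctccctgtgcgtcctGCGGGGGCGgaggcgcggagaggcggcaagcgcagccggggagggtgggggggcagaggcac

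Both strands were searched from 250 bases before to 50 bases after each start, and overlapping matches were counted separately. EGR1 held 2 CArG boxes, which begin 105 and 83 bases before its start, and an EGR site that begins 198 bases before it. The first of the SRF promoters held 2 CArG boxes, beginning 30 and 10 bases before the start, and an EGR site at 49 bases. NAB2 held an EGR site at 62 bases and no CArG box. Of all 35116 promoters listed, 454 (1.29%) held a CArG box and 11 (0.0313%) held at least 2, and those of EGR1 and SRF are among these 11. An EGR site was found in 9.43% of all promoters, at least 2 in 1.59% and at least 3 in 0.333%. Promoters were listed for 9 of the 10 genes, 15 in all. Of the 3 EGR2 promoters 1 also held a CArG box, beginning 71 bases before its start, and another held an EGR site after its start. NAB1 had 3 promoters, of which the first held 3 EGR sites and the second, which overlaps it, held 4. The 3 sites of the first are among these 4. The ETS site CCGGAAGT, found in 4.14% of all promoters, was met in ELK4 alone among these 9 genes, at 22 bases before the start. The ELK3 promoters held none of these motifs, although the groups of arrays were also apart on ELK3 221773_at. Whether the motifs go with a change was not tested. These matches describe the letters in these windows and do not show that a factor binds there.

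Signals are log2 values made by the authors with RMA, a method that subtracts background, gives the arrays a common distribution and summarises the probes of a probe set. Of the 27 probe sets, 17 were at or above the median mean signal of all probe sets, 3.49, and entered the test. These 17 represent 8 genes. The other 10, with mean signals of 2.08 to 3.43, include the only one for EGR3. Nearest to the filter were EGR4 207767_s_at at 3.68 and ELK4 214831_at at 3.74 on the inner side, and NAB1 208047_s_at at 3.43 and EGR4 231575_at at 3.12 on the outer side. Probe sets differ in how brightly they report a transcript, so levels are not compared between them.

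The arrays correlated with each other at 0.997 across probe sets. CA array 1 stood away from the others on the second principal component, at -19.0 against 0.338 to 7.20, and the larger member differences are given with and without it. The 3' minus 5' signal of control transcripts was also lower on average on the CA arrays. The log2 signal of the 3' minus the 5' probe set of actin was 1.14, 1.18 and 1.31 in CA, against 1.45, 1.49 and 1.40 in DMSO, with every CA array lower (exact 2-sided permutation p = 0.1, the smallest that 3 against 3 arrays allow). For GAPDH it was 0.63, 0.58 and 0.60 in CA, against 0.62, 0.64 and 0.65 in DMSO (exact p = 0.2). Among the added control RNAs dap, phe and thr had p = 0.1 and lys p = 0.6 by the same exact test, unadjusted over these 6 transcripts, and all 6 differences were lower in CA. Their part in the changes of the members was not tested. Scaling the arrays to the 3' probe sets of the added RNAs adds 0.20 to each log2 change.

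EGR1 signal was lower on the CA arrays in all 3 of its probe sets. On 201694_s_at, the brightest, it was 6.22, 6.10 and 5.79 on the CA arrays, against 7.93, 7.89 and 7.69 on the DMSO arrays. The highest CA array lay well below the lowest DMSO array. The means were 6.04 ± 0.22 in CA and 7.84 ± 0.13 in DMSO (SD, n = 3 each), a difference of -1.80 (95% confidence interval -2.09 to -1.51). On a linear scale EGR1 signal in CA was 28.7% of that in DMSO.

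The second probe set, 227404_s_at, gave 4.91, 4.91 and 4.35 in CA, against 6.50, 6.34 and 6.25 in DMSO. CA array 3 was the lowest of the 6 on both of these probe sets, and the 2 groups were again apart. The difference was -1.64 (-2.02 to -1.26), which left 32.1% of the DMSO signal. The dimmest, 201693_s_at, gave 3.62, 3.75 and 3.59 in CA, against 4.78, 4.51 and 4.59 in DMSO. Here the CA values lay just above the filter on low signals, and the difference was smaller, at -0.97 (-1.17 to -0.78), or 50.9% of the DMSO signal. The direction was thus shared by the 3 probe sets, and the size differed by 0.83 on the log2 scale between the brightest and the dimmest.

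**Figure D1:**
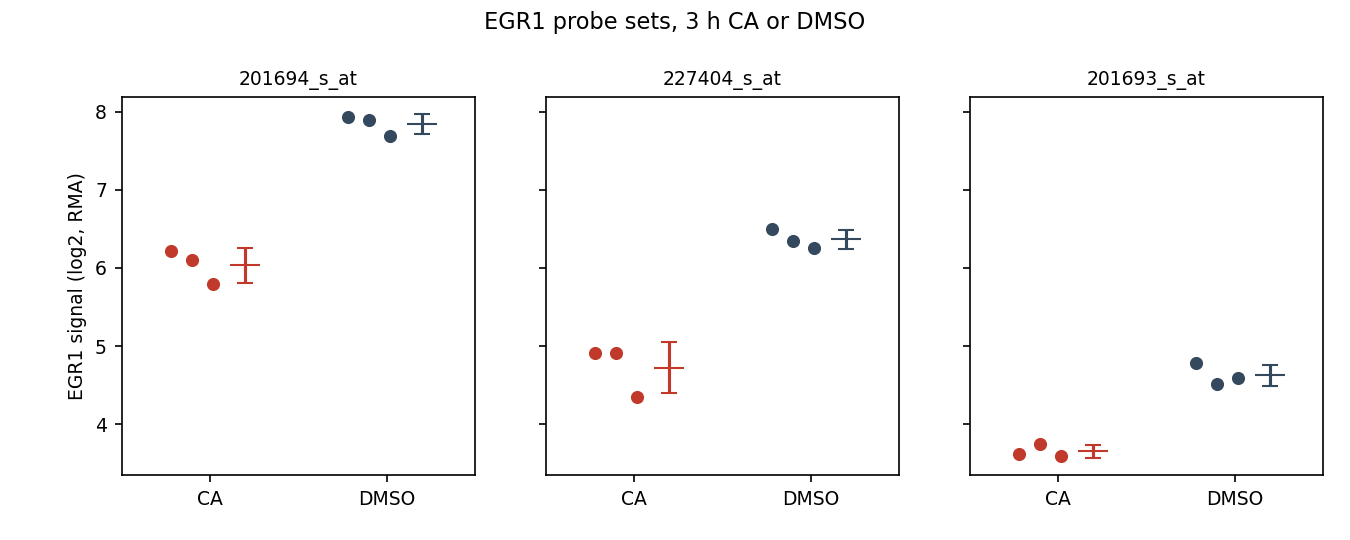
EGR1 signal (log2, RMA) on 3 probe sets, 1 panel each, with a point for every array and the mean ± SD (n = 3) beside the points. In each panel the 3 CA arrays lie below the 3 DMSO arrays, and the gap between the means is 1.80, 1.64 and 0.97 from left to right, each with CA lower.

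Called means a Benjamini-Hochberg adjusted p under 0.05 over all 27307 tested probe sets in limma. Of the 17 tested probe sets of the group 3 were called, all of them EGR1 and all lower in CA, where 0.0952% of all tested probe sets were called and 0.0439% were called lower. Since EGR1 was chosen for this difference, nothing is read from that count. By size of change, the EGR1 probe sets ranked 1, 2 and 5 among the 27307. Leaving out CA array 1, 2 or 3 left 1, 0 and 2 of the 3 calls, and leaving out DMSO array 1, 2 or 3 left 0 each time. The difference on 201694_s_at stayed between -1.89 and -1.68 in these 6 fits, with adjusted p in limma between 0.0287 and 0.150, and was -1.89 without CA array 1. With scaling to the 3' control RNAs it was -1.61. All 3 EGR1 probe sets carry the suffix for probes shared between transcripts, so in a fit without such probe sets EGR1 was not measured.

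**Figure D2:**
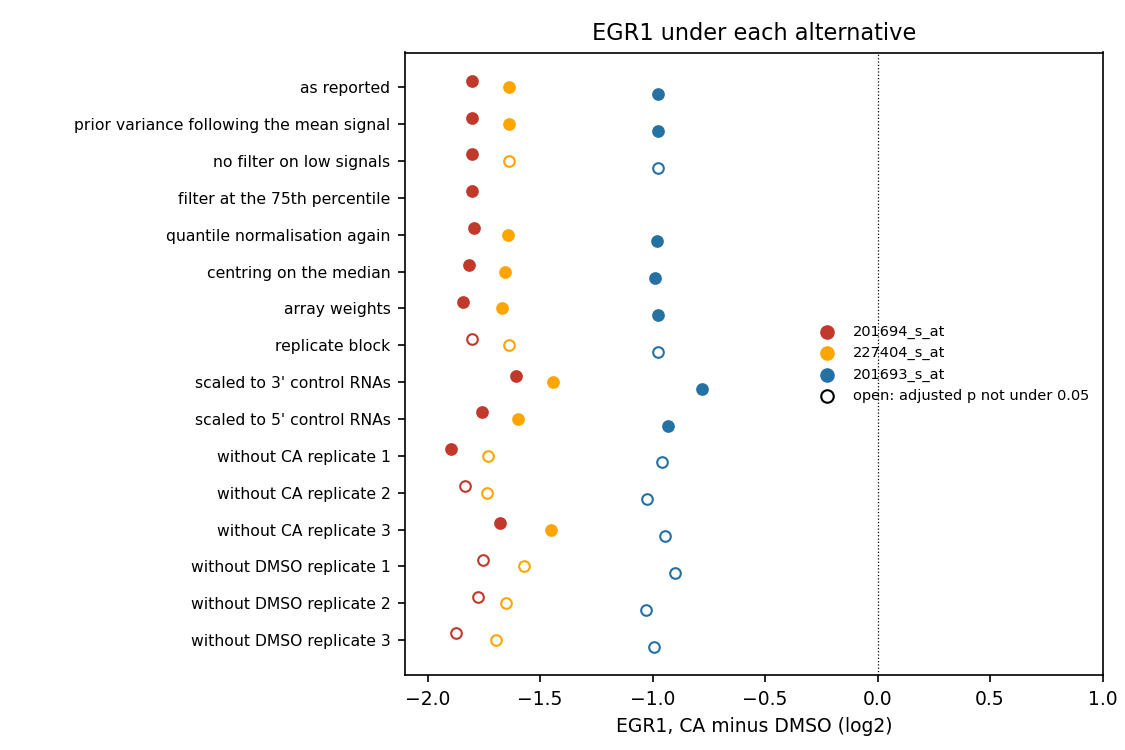
EGR1, CA minus DMSO (log2), on its 3 probe sets (colours) under the reported settings and each alternative, including each array left out. Filled points have an adjusted p under 0.05, and open points do not. Over all settings the brightest probe set lies between -1.89 and -1.61.

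The other EGR genes were dim. The single EGR3 probe set gave 2.52, 2.20 and 1.96 in CA, against 2.14, 2.07 and 2.06 in DMSO, below the filter and overlapping. EGR4, of which 1 of 3 probe sets was tested, gave 3.68, 3.70 and 3.46 in CA on 207767_s_at, against 3.85, 3.76 and 3.62 in DMSO. The groups overlapped, and the difference of -0.13 (-0.34 to 0.08) includes 0. The other EGR4 probe sets had -0.01 and -0.06. RMA is known to compress differences at such low signals, so the intervals apply to these values only.

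NAB2, the corepressor that EGR factors induce, was lower in CA on its brighter probe set, 212803_at. It gave 5.37, 5.32 and 5.28 in CA, against 5.55, 5.62 and 5.65 in DMSO, without overlap. The difference was -0.28 (-0.40 to -0.16), or 82.5% of the DMSO signal, and it was not called (adjusted p = 0.177 in limma). With scaling to the 3' control RNAs it was -0.08. The dimmer probe set, 216017_s_at, gave 4.38, 4.21 and 4.40 in CA, against 4.39, 4.20 and 4.43 in DMSO, a difference of -0.01 (-0.21 to 0.18). The 2 probe sets differed in size of change by 0.26, and whether that exceeds their error was not tested.

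NAB1 overlapped between the groups on all of its probe sets. The brightest, 209272_at, gave 7.05, 6.97 and 6.93 in CA, against 6.95, 7.12 and 7.06 in DMSO, a difference of -0.06 (-0.21 to 0.08). The other tested one had -0.10 (-0.30 to 0.10), and those below the filter had -0.05 and 0.05. The interval of the brightest one lies within 1.15-fold in either direction on the RMA scale.

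SRF was higher in CA on both of its probe sets, the opposite direction to EGR1. On 202401_s_at it gave 6.77, 6.76 and 6.82 in CA, against 6.57, 6.68 and 6.58 in DMSO. On 202400_s_at it gave 4.09, 4.14 and 3.82 in CA, against 3.74, 3.80 and 3.78 in DMSO. The groups did not overlap on either, although CA array 3 came close to DMSO on the dimmer one. The differences were 0.17 (0.06 to 0.28) and 0.24 (0.03 to 0.45), 1.13-fold and 1.18-fold, and neither was called (adjusted p = 0.357 and 0.471 in limma). With scaling to the 3' control RNAs both SRF probe sets were called, at 0.37 and 0.44. Under that scaling 3691 of all 27307 tested probe sets were called, 3675 of them higher, and the median of all probe sets moved to 0.19. SRF was used in the selection, so nothing is read from these calls.

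None of the tested probe sets of the ternary complex factors was called in limma. ELK1, on its brightest probe set 203617_x_at, gave 8.02, 8.01 and 8.06 in CA, against 8.00, 8.03 and 8.00 in DMSO. That is a difference of 0.02 (-0.08 to 0.11), and the second tested ELK1 probe set also had 0.02 (-0.10 to 0.15). The remaining one, 210850_s_at, was below the filter and had 0.16 (-0.08 to 0.41). The 2 tested probe sets carry the suffix that marks probes shared with other sequences, so other transcripts may contribute to them.

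ELK3, which acts as a repressor until ERK phosphorylates it, was lower in CA on 221773_at, at 6.27, 6.40 and 6.18, against 6.47, 6.66 and 6.49 in DMSO. The groups did not overlap, and the difference was -0.25 (-0.44 to -0.07), not called (adjusted p = 0.389 in limma). With scaling to the 3' control RNAs it was -0.06. The other ELK3 probe set was below the filter and had 0.00.

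ELK4, also known as SAP-1, had 7 probe sets, 4 of them tested. The brightest, 225159_s_at, gave 6.54, 6.48 and 6.50 in CA, against 6.49, 6.75 and 6.58 in DMSO, with overlap and a difference of -0.09 (-0.27 to 0.08). The other tested ones had -0.25 (-0.58 to 0.08), -0.01 (-0.23 to 0.21) and 0.05 (-0.16 to 0.26). Among those below the filter, 205994_at gave 2.68, 2.64 and 2.75 in CA, against 2.19, 2.46 and 2.29 in DMSO, a difference of 0.37 (0.18 to 0.57). That is the opposite sign to the brightest one, at a signal near the bottom of the array's range. The others below the filter, 230549_at and 1556618_at, had -0.04 and 0.03. The tested ELK4 probe sets also differed in sign, but their intervals all include 0, so no direction is read from them.

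**Figure D3:**
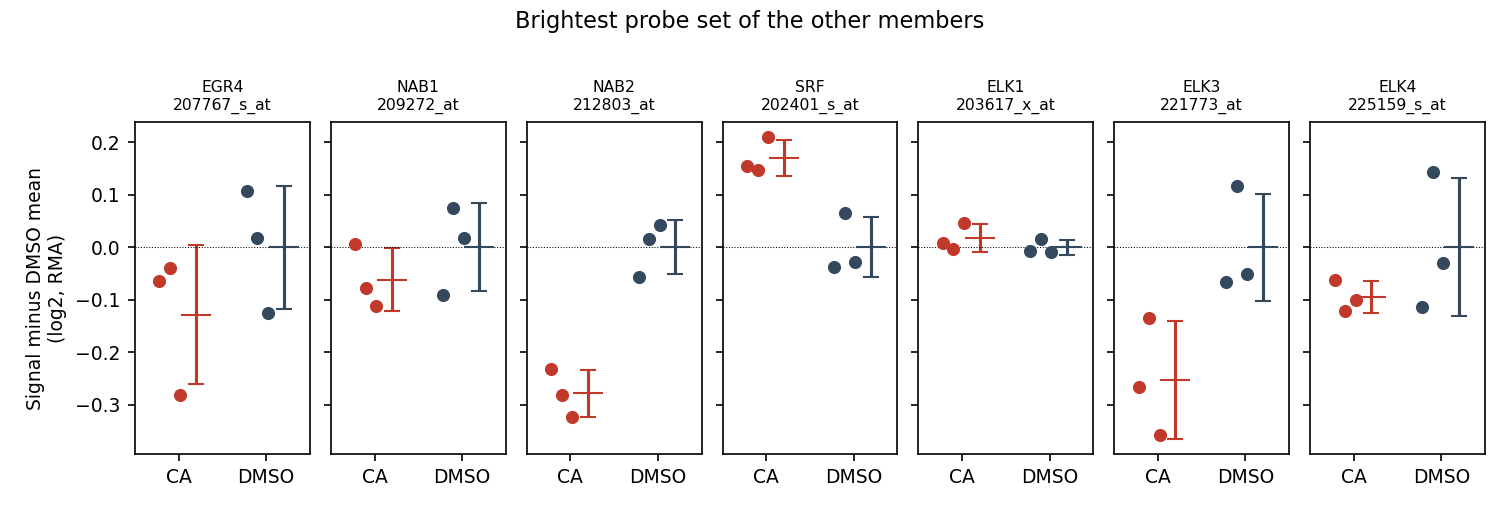
Brightest tested probe set of the 7 other measured members, as signal minus the mean of the DMSO arrays (log2), with a point for every array and the mean ± SD (n = 3). CA and DMSO arrays are apart for NAB2, SRF and ELK3 and overlap for EGR4, NAB1, ELK1 and ELK4.

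Taking the 14 tested probe sets other than EGR1 together, 0 were called in limma and also 0 with a mean-dependent prior variance, under which 1.04% of all tested probe sets were called. Of them 4 had an unadjusted p under 0.05, where 9.31% of all tested probe sets did. SRF, which was used in the selection, gave 2 of these 4, and without EGR1 and SRF it was 2 of 12, NAB2 212803_at and ELK3 221773_at. Their adjusted p lay between 0.177 and 0.981 and their changes between -0.28 and 0.24. All 17 tested probe sets had a median change of -0.09 and the 14 other than EGR1 one of -0.04, against -0.01 over all tested probe sets. Groups that did not overlap were seen in 7 of the 17, 5 lower and 2 higher in CA, where 15.6% of all tested probe sets had this, 8.52% lower and 7.09% higher. Without the 3 EGR1 probe sets 4 of 14 remain, of which 2 are the SRF ones used in the selection. Without both genes 2 of 12 remain, those of NAB2 and ELK3, both lower in CA. Leaving out CA array 1, the differences were -1.73 for EGR1 227404_s_at, -0.96 for EGR1 201693_s_at, -0.30 for NAB2 212803_at, -0.25 for ELK3 221773_at, and 0.18 and 0.21 for SRF.

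**Figure D4:**
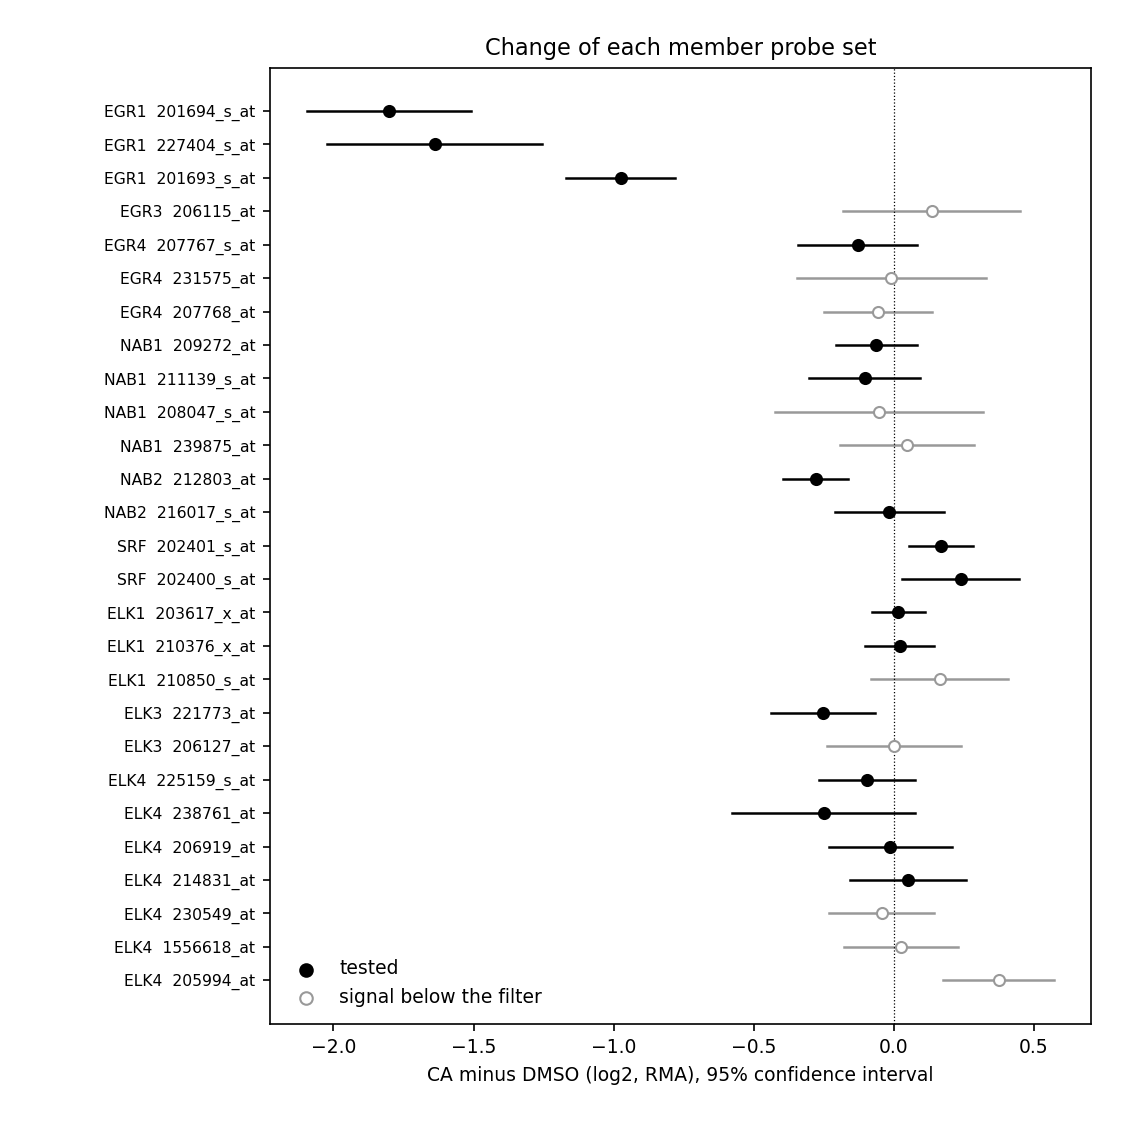
CA minus DMSO (log2, RMA) of all 27 probe sets with 95% confidence intervals from limma, filled where tested and open where the signal was below the filter. The EGR1 intervals all end at or below -0.78, and the lowest end of any other interval is -0.58.

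Genes around these factors were described from 6 lists, each gene read from its brightest tested probe set. Over all 12810 measured genes 11 were called (0.0859%), 8.61% had an unadjusted p under 0.05, and the median change was -0.01. In each of the 6 lists 0 genes were called in limma, and with a mean-dependent prior variance 1 gene was called in each of 2 lists and 0 in the other 4, where 1.23% of all measured genes were called.

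Of 18 listed immediate early targets of ERK, SRF and the ternary complex factors 16 were measured. Among these 6 had an unadjusted p under 0.05, 5 lower and 1 higher in CA. The groups did not overlap in 5, 4 lower and 1 higher. Over all 12810 measured genes this was so in 2061, 1274 lower and 787 higher. The median change was 0.01, with 7 below and 9 above 0. IER2, an early response gene, gave 9.74, 9.67 and 9.66 in CA, against 9.88, 9.90 and 9.89 in DMSO, a difference of -0.20 (adjusted p = 0.252 in limma). It was called with a mean-dependent prior variance, as 1 gene of this list (adjusted p = 0.00392 in limma). TRIB1, a pseudokinase scaffold gene, gave 7.48, 7.45 and 7.36 in CA, against 7.25, 7.18 and 7.21 in DMSO, a difference of 0.22. ZFP36, which encodes an RNA-binding protein that destabilises AU-rich mRNAs, was picked after its values were seen, as the gene with the lowest change of the 6 lists. It gave 6.01, 6.03 and 5.68 in CA, against 6.33, 6.19 and 6.29 in DMSO, a difference of -0.37 (adjusted p = 0.350 in limma). IER3 had -0.15 and MCL1, the brightest and an anti-apoptotic BCL2 relative, had 0.05.

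Cytoskeletal targets that SRF controls with its MRTF cofactors had a median of 0.04. Of 20 listed 15 were measured, 2 had an unadjusted p under 0.05, and 10 of the 15 fitted changes were above 0. TPM2, a tropomyosin gene, had 0.15, VIL1, which encodes the actin-binding protein villin, had 0.18, TLN1, encoding talin, had 0.17, and ACTB, the brightest, had 0.06.

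Target genes of EGR1 known from other cells had a median of 0.02 over 10 measured of 16 listed, with 2 at an unadjusted p under 0.05. Both of these were lower in CA. PDGFA, a growth factor gene, gave 5.84, 5.62 and 5.60 in CA, against 5.88, 6.09 and 6.04 in DMSO, a difference of -0.32 (-0.52 to -0.11, adjusted p = 0.343 in limma). GDF15, a stress-induced cytokine and the brightest of the list, gave 6.82, 6.78 and 6.66 in CA, against 6.97, 6.98 and 6.94 in DMSO, a difference of -0.21 (-0.34 to -0.08, adjusted p = 0.328 in limma). Neither overlapped between the groups, which was seen in 2 of the 10 measured genes here and in 2061 of all 12810. PTGES, a prostaglandin synthase gene, had 0.12.

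Genes of the ERK cascade and partners of SRF and EGR factors had a median of 0.02, with 13 of 17 measured and 1 at an unadjusted p under 0.05. That was CREBBP, an acetyltransferase gene, at -0.18. MED23, the Mediator subunit that ELK1 contacts, had 0.08 (-0.05 to 0.20), and the ERK-activated kinase genes RPS6KA5 and RPS6KA3, the brightest, had 0.12 and -0.05. The 8 genes of the NuRD chromatin remodelling complex, which NAB proteins recruit through CHD4, had a median of -0.01 and 0 at an unadjusted p under 0.05. CHD4 had -0.09, CHD3 0.05, HDAC2 -0.04 and RBBP4, the brightest, 0.01.

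Other zinc finger factors that bind GC-rich sites were all 6 measured, with fitted changes between -0.30 and -0.01 and a median of -0.06, which the 3' scaling turns above 0. SP4 gave 7.17, 7.25 and 7.17 in CA, against 7.48, 7.47 and 7.53 in DMSO. The groups were apart, and its difference of -0.30 (-0.40 to -0.19) was not called in limma (adjusted p = 0.136) but was with a mean-dependent prior variance (adjusted p = 0.00757 in limma). SP3 had -0.12, ZBTB7A -0.08, and WT1, the brightest and a factor whose fingers resemble those of EGR1, had -0.02.

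**Figure D5:**
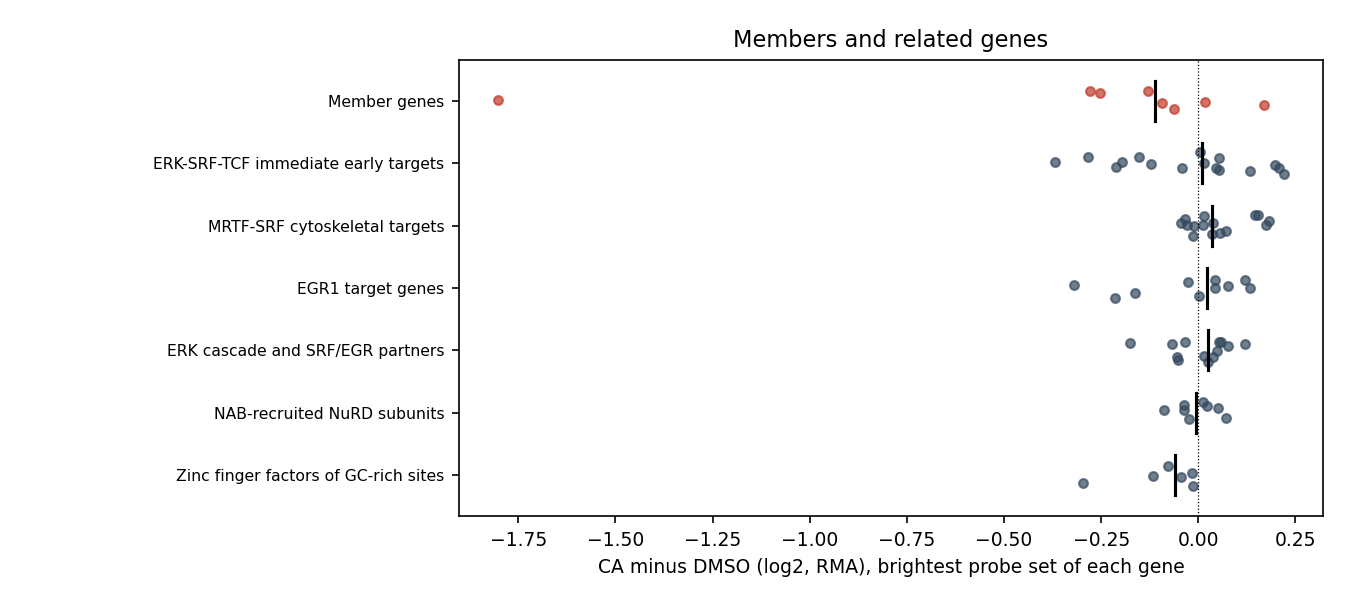
CA minus DMSO (log2, RMA) of the 8 measured member genes and of the genes in 6 related lists, each from its brightest tested probe set, with the median as a bar. EGR1 lies at -1.80, and all genes of the lists lie between -0.37 and 0.22.

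The genes whose values over the 6 arrays came nearest to those of EGR1 were sought by the root mean square distance between differences from the DMSO mean, over all measured genes that are not members. They were TXNIP (distance 0.47), DNAJB4 (0.85), PPP1R10 (0.93), CCDC102A (0.96) and HEXIM1 (0.97). The median gene stood at 1.28. TXNIP, an arrestin-related gene, gave 8.37, 8.41 and 8.39 in CA, against 9.56, 9.59 and 9.52 in DMSO, a difference of -1.17. The nearest members were NAB2 at 1.09 and ELK3 at 1.10, and SRF was the farthest at 1.40. Likeness of this kind follows the size of a decrease and does not show shared control.

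The identity of the cells was looked at with marker genes. Of 10 erythroid and megakaryocytic markers of K562, 8 had a probe set with 1 symbol and all 8 were above the filter, with HBE1, an embryonic globin gene, at a mean of 13.3. Of the T cell markers 3 of 5 were above it, of the B cell markers 3 of 5 (4 with such a probe set) and of the monocyte markers 2 of 4. For epithelium and for fibroblasts it was 3 of 4 each. EPCAM was the brightest of these other markers at 10.5. The brightest T cell marker, CD3D, had 9.07, and the brightest monocyte marker, LYZ, had 8.88. None of these marker genes was called in limma. Of the K562 markers 3 had an unadjusted p under 0.05, as had 1 B cell and 1 epithelial marker, where 8.61% of all measured genes did. The summed linear signal of the K562 markers was 21294 to 21705 on the CA arrays and 20824 to 20967 on the DMSO arrays. These ranges did not overlap and CA was higher, and HBE1, the brightest, weighs most in the sum. For each of the other marker lists the ranges of the groups overlapped. In bulk RNA of this kind, a change in the number of cells and a change in RNA per cell cannot be told apart.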

How the data were processed

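The data are 1 table of log2 RMA signals for 54675 probe sets on 6 arrays, deposited by the authors. RMA in the affy package is named in the submitters' processing notes, without a version. The 62 control probe sets were left out of the test, and 27307 probe sets with a mean at or above the median were tested with limma 3.58.1 in R 4.3.3 (lmFit and eBayes, 2-sided, no block). Genes were named from the platform annotation, and all 27 member probe sets had the same symbol in RefSeq by gene ID. Intervals of probe sets below the filter come from a fit without it. Precision is set by the number of arrays, and the median SE was 0.066 for a log2 change. The fit was tested on simulated data.

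The members and the gene lists were chosen with earlier results of these data known. Named were all members, and from each list the called genes, the brightest and the 3 with the smallest unadjusted p. ZFP36 was named outside this rule, after its values were seen. Genes nearest to EGR1 were the 5 with the smallest distance. Alternatives were the prior variance, the filter, normalisation, array weights, shared probe sets, control RNA scaling, the replicate number and each array left out. The reported fit did not pair arrays by replicate number.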

Additional observations from a re-analysis of the deposited data

How the results depend on the processing

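Direction did not change for the 3 EGR1 probe sets in any alternative run. The count of called probe sets was 26 over all probe sets and 3 among the members as reported. It was 285 with a mean-dependent prior variance, 5 when unfiltered, 162 above the 75th percentile of mean signal, 1 without shared probe sets, and 3691 (3675 higher and 16 lower) with scaling to the 3' control RNAs. Quantile normalisation again gave 26 (12 higher and 14 lower), centring 23, array weights 30 and 5' control scaling 28. The member count was 1 of 27 when unfiltered and 5 of 17 with 3' scaling. Above the 75th percentile it was 1 of 6 tested, and 201694_s_at was the only EGR1 probe set among them. Without shared probe sets it was 0 of 7 tested, since the 3 EGR1 probe sets are marked as shared. Leaving out 1 array gave 2 to 6 calls in all and 0 to 2 among the members. EGR1 201694_s_at was then between -1.89 and -1.68.

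The replicate numbers were also tried as a block. Same-numbered CA and DMSO arrays had deviations from their group means that correlated at -0.07, 0.01 and 0.06. Arrays of different numbers correlated at -0.11 to 0.09. Correlations over all tested probe sets cannot exclude a pairing, and the labels do not say whether equal numbers mark a pair. With this replicate block 0 probe sets and 0 member probe sets were called in limma, and EGR1 201694_s_at stayed at -1.80 (adjusted p = 0.0604 in limma). The mean of the 3 EGR1 probe sets was -1.47. NAB2 212803_at ran from -0.31 to -0.08, ELK3 221773_at from -0.31 to -0.06 and SRF 202401_s_at from 0.15 to 0.37, each with 1 sign throughout. The -0.08, the -0.06 and the 0.37 all came from scaling to the 3' control RNAs. Under that scaling NAB2 and ELK3 were close to 0 and not called (adjusted p = 0.285 and 0.585 in limma). NAB2 216017_s_at and ELK4 206919_at turned sign in 5 alternatives each, with values around 0. The median of all probe sets moved to 0.19 with 3' scaling, so changes are relative to it. The only EGR3 probe set and 2 of 3 EGR4 probe sets had signals below the filter.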
